A study of Mus musculus with 7 samples.

Results

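The tubulin isotypes described here are the 4 α-tubulin genes Tuba1a, Tuba1b, Tuba1c and Tuba4a and the 6 β-tubulin genes Tubb2a, Tubb2b, Tubb3, Tubb4b, Tubb5 and Tubb6. They were selected by gene symbol, with earlier results of these data known, and all 10 were found among the 54309 genes of the deposited table. Its unit, TPM, is a transcript abundance corrected for transcript length and brought to one common total in every library. The samples were neuron-enriched cells from L4-6 dorsal root ganglia (DRG), the sensory ganglia whose neurons send axons into the sciatic nerve, of male C57bl/6 mice aged 6-8 weeks, as labelled. All groups carried a sciatic nerve injury, made at Zeitgeber time (ZT, hours after lights on) 20 or 8, and ganglia were taken 72 h later. There were 4 samples at ZT20 and 3 at ZT8, and no uninjured group is among them. Injury and dissection fell at one clock time in each group, so their effects cannot be told apart. Whether a sample is 1 animal or a pool is not stated, so the p-values measure the spread between these samples, which may be partly technical.

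Microtubules are built from dimers of 1 α-tubulin and 1 β-tubulin, each encoded by several genes. Within each family the encoded proteins differ most in their acidic C-terminal tails, on which tubulin-modifying enzymes act and to which motors and microtubule-associated proteins bind. Tuba1a is the main α-tubulin of young and regrowing neurons, Tubb3 is the neuron-restricted β-tubulin widely used to stain neurons, and Tubb5 and Tubb4b are β-tubulins made in many cell types. Cells also adjust tubulin mRNA to the pool of free tubulin, through recognition of the start of the nascent protein on the ribosome.

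The sequences of the members bear directly on how well their levels can be separated. The last 60 coding bases, which encode the C-terminal tail and the stop codon, are shown for 7 members from the GENCODE M21 transcripts (build GRCm38). The submitters' processing notes name another build, GRCm39, so coordinates are those of the sequence source alone. Capitals mark bases that lie in no 31-base word found in transcripts of another gene. The α-tubulin ends were:
Tuba1c (chr15:99037950-99038009, plus strand): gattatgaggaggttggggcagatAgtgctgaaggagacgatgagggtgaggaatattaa
Tuba4a (chr1:75215622-75215681, minus strand): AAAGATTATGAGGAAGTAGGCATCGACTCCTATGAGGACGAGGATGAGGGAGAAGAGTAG

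The β-tubulin ends were:
Tubb2a (chr13:34074468-34074527, minus strand): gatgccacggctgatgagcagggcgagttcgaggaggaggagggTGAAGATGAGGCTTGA
Tubb2b (chr13:34127471-34127530, minus strand): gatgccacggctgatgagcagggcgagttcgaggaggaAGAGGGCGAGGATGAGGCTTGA
Tubb3 (chr8:123421623-123421682, plus strand): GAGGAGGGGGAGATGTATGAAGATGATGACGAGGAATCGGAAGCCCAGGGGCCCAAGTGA
Tubb4b (chr2:25222308-25222367, minus strand): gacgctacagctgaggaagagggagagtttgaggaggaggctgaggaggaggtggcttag
Tubb5 (chr17:35834982-35835041, minus strand): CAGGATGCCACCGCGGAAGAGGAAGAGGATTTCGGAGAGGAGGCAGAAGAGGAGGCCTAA

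The tail-coding ends of Tubb2a and Tubb2b differed at 3 of 60 bases. Tuba1c ends on a tyrosine codon before the stop, the residue that is removed and restored in the tyrosination cycle of α-tubulin, and Tuba4a does not. Of the 20 codons in this window, 10 or 11 encoded an acidic residue in each of the 7 members shown.

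Tuba1a, Tuba1b and Tuba1c shared most of their sequence, and Tubb2a and Tubb2b formed a second pair. Coding sequences of Tuba1a and Tuba1b were 98.3% identical, those of Tuba1b and Tuba1c 97.9%, those of Tuba1a and Tuba1c 97.1% and those of Tubb2a and Tubb2b 96.5%. The other pairs within a family were 80.2% to 85.7% identical, and α against β 52.5% to 55.4%. Of all 31-base words of a gene's transcripts, 77.0% occurred in another gene for Tuba1a, 68.9% for Tuba1b and 55.3% for Tuba1c. The share was 56.4% for Tubb2a and 43.1% for Tubb2b. Within the coding sequence the shared words reached 95.6% for Tuba1a, 97.2% for Tuba1b and 94.5% for Tuba1c, so most of their unshared words lay outside it. Tuba4a, Tubb3, Tubb5 and Tubb6 shared only 2.80% to 3.47% of their words with other genes. Tubb4b shared 48.6%, of which 0.240% with the other members and 41.0% with the pseudogene Tubb4b-ps1.

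**Figure D1:**
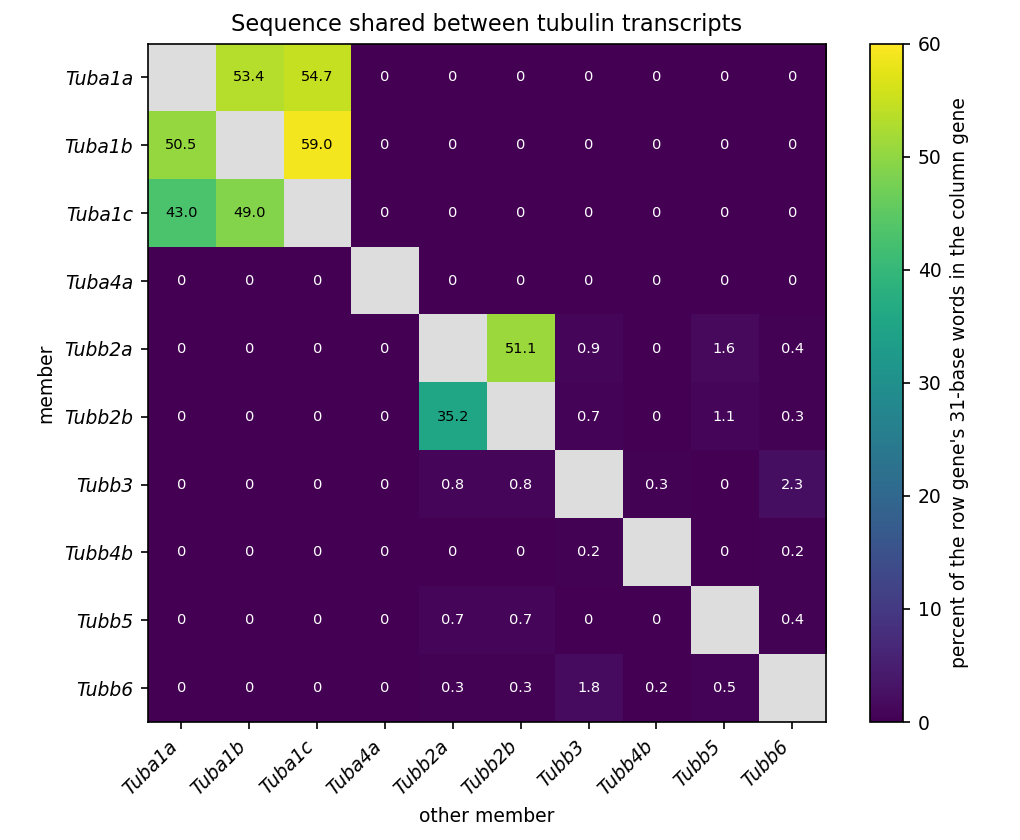
Each cell gives the percent of a member's 31-base transcript words (row) that also occur in transcripts of another member (column), GENCODE M21. Tuba1a, Tuba1b and Tuba1c form one block, from 43.0% to 59.0%, and Tubb2a with Tubb2b another, at 51.1% and 35.2%.

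The pseudogenes that share words with the members held little signal in the table. There were 37 of them, with mean levels that summed to 27.3 TPM, and 7 had a mean of at least 1 TPM. Gm14892 was the highest of them, at a mean of 4.63 TPM. The pseudogenes named for a member, Tubb4b-ps1, Tubb4b-ps2 and Tubb2a-ps2, were all at 0.809 TPM or less in every sample. The protein-coding gene Gm49450 shares 41.9% of the Tuba1a words and 36.6% of the Tuba1b words. Its own values were 2.14, 1.70, 40.1 and 46.2 TPM in ZT20 replicates 1 to 4 and 39.8, 3.34 and 6.44 TPM in ZT8 replicates 1 to 3, high in 2 samples of one group and 1 of the other. How reads were divided among these genes is not stated, so values of Tuba1a, Tuba1b and Tuba1c, and of Tubb2a and Tubb2b, are given below also as sums.

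Some libraries stood apart. Genes above 0 TPM numbered 18297 in ZT8 replicate 2 and 22541 to 25238 in the other 6 samples. Transcripts of 4 genes of the Y chromosome (Uty, Kdm5d, Eif2s3y, Ddx3y) summed to 0.0162 and 0.00868 TPM in ZT20 replicates 3 and 4, although these are labelled male, and to 33.1 to 84.6 TPM in the other 5 libraries. Sequencing depth cannot be read from TPM and is unknown.

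Tuba1a was among the 10 most abundant genes of these ganglia in every sample. Its ZT20 replicates 1 to 4 held 5895, 5445, 5754 and 5574 TPM, and ZT8 replicates 1 to 3 held 6456, 8254 and 5948 TPM. It ranked between 3rd and 10th among all genes, and the ZT8 samples were the 3 highest. Tubb3 followed, ranked 14th to 42nd, then Tuba1b (45th to 74th) and Tubb2a (67th to 132nd). Each of the 3 was below the gene before it in 7 of 7 samples. Tubb4b and Tubb5, at means of 761 and 614 TPM over all samples, came next. Tubb6 (237 TPM), Tubb2b (182 TPM) and Tuba4a (174 TPM) lay close together, and the ranges of Tubb6 and Tubb2b and those of Tubb2b and Tuba4a overlapped. Tuba1c was lowest, at 24.9 to 31.4 TPM, and Tuba4a was 6.16 times as high. The 10 members together took 1.37% to 1.58% of all TPM at ZT20 and 1.48% in each ZT8 sample.

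**Figure D2:**
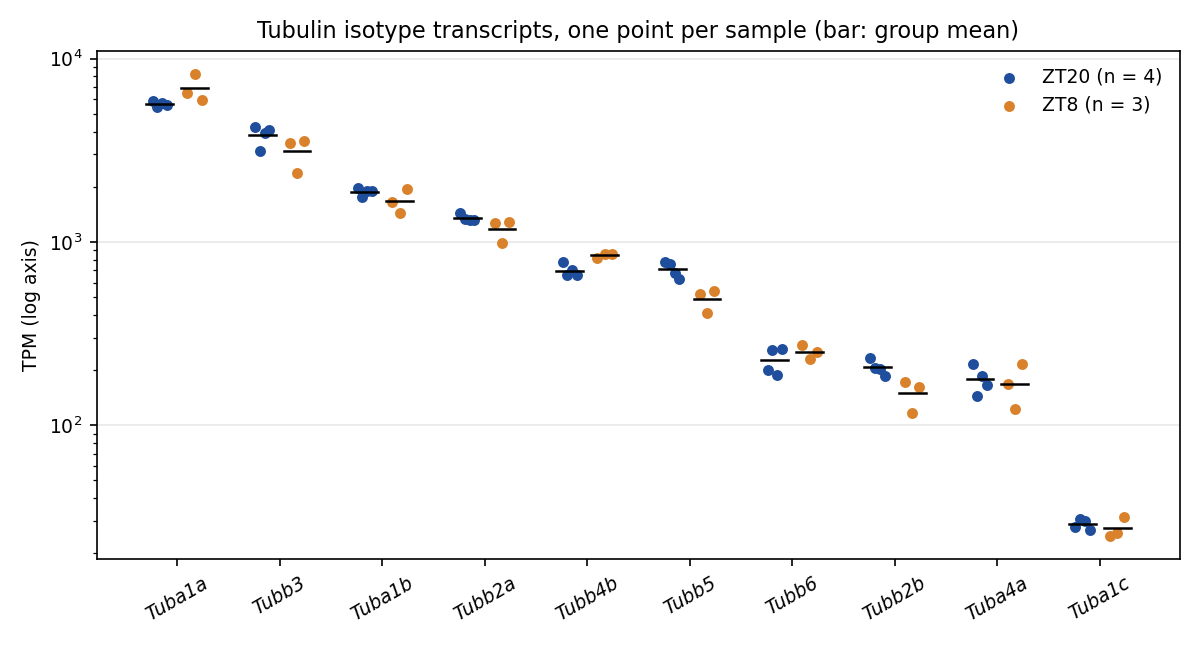
TPM of the 10 tubulin isotypes on a log axis, with 1 point per sample (ZT20 n = 4, ZT8 n = 3) and a bar at each group mean, ordered by mean level. Tuba1a lies above all others and Tuba1c far below. The groups do not overlap in Tubb5, where ZT20 is at 628 TPM or more and ZT8 at 536 TPM or less. Nor do they overlap in Tubb2b, Tubb2a, Tuba1a and Tubb4b.

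The order of levels was the same in both groups except for neighbours. At ZT20 Tubb5 and Tubb4b did not differ beyond their spread, with Tubb5 higher in 2 of 4 samples. At ZT8 Tubb4b was above Tubb5 in 3 of 3 samples, by 1.73-fold in the means, and their ranges did not overlap. Tubb2b was above Tuba4a in 4 of 4 ZT20 samples and below it in 2 of 3 ZT8 samples, with overlapping ranges in each group.

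Clock times were compared gene by gene by limma on log2(TPM + 1), with adjustment over all 14800 genes that averaged 1 TPM or more. All 10 members passed that minimum. At an adjusted p under 0.05, 1 of the 10 members was called, Tubb5, higher at ZT20. Among all tested genes 16.4% were called, 12.8% higher and 3.61% lower, so the members' share is near the background. The log2 difference (ZT20 minus ZT8) was positive for 7 of the 10 members and for 66.4% of all tested genes. Its median was 0.13 for the members and 0.23 for all tested genes, and 3 of the 10 lay above that median, as do 50% of all genes by definition. Median-ratio scaling moved the median of all genes to 0.033 and the correction for transcript length and GC content to −0.0030, so member differences are also given relative to that median where they matter. Values did not overlap between the groups for 5 members, Tubb5, Tubb2b and Tubb2a being higher at ZT20 and Tuba1a and Tubb4b lower. Among all tested genes 33.2% did not overlap (24.5% higher and 8.72% lower). In bulk samples fewer cells of a type and less RNA per cell cannot be told apart.

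Tubb5 (ENSMUSG00000001525) reached 778, 755, 674 and 628 TPM in ZT20 replicates 1 to 4, against 519, 410 and 536 TPM in ZT8 replicates 1 to 3. Every ZT20 sample lay above every ZT8 sample. The means were 709 ± 70.0 TPM (SD, n = 4) and 489 ± 68.3 TPM (SD, n = 3). Tubb5 rose 1.45-fold at ZT20, or by 0.54 ± 0.13 in log2 (SE; limma adjusted p = 0.0295), which is 0.31 above the median of all genes. The difference was positive under all 20 alternatives, from 0.31 to 0.66, but it passed the threshold under 8 of them. It did not pass with any 1 ZT20 library left out (limma adjusted p from 0.0572 without replicate 4 to 0.0805 without replicate 3), and passed with any 1 ZT8 library left out. After median-ratio scaling the value was 0.31 (limma adjusted p = 0.169), and with the length and GC correction 0.40 (limma adjusted p = 0.0737). The Tubb5 transcript has 2649 nt, longer than those of 8 of the other 9 members. Without the 2 libraries lacking Y-linked transcripts the difference was 0.66 (limma adjusted p = 0.184, when 0 of 14800 genes passed).

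Tubb4b (ENSMUSG00000036752) was lower in every ZT20 sample than in any ZT8 sample, without passing the threshold. It was at 772, 661, 700 and 657 TPM at ZT20 and at 814, 863 and 861 TPM at ZT8. In log2 this was −0.28 ± 0.10 (SE; limma adjusted p = 0.0889), or −0.51 relative to the median of all genes. It was negative under all 20 alternatives and passed under median-ratio scaling, at −0.51 (limma adjusted p = 0.0286). Under that scaling 1 of the 10 members passed, Tubb4b, beside 7.84% of all tested genes called lower and 7.62% called higher. After the length and GC correction it was −0.30 (limma adjusted p = 0.114).

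A ratio of genes within a sample does not depend on scaling between samples. The ratio of Tubb5 to Tubb4b, chosen after the values were seen and not tested, stood at 1.01, 1.14, 0.963 and 0.956 in the ZT20 libraries and at 0.637, 0.476 and 0.623 in those of ZT8, by replicate number, so the groups did not overlap, with or without ZT8 replicate 2. The 2 genes share 0 words of 31 bases, and their transcripts, at 2649 and 1598 nt, differ in length.

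Tubb2b (ENSMUSG00000045136), a β-tubulin of developing neurons, was at 233, 206, 202 and 186 TPM at ZT20 and at 173, 116 and 161 TPM at ZT8. The lowest ZT20 sample lay just above the highest ZT8 sample. The log2 value was 0.47 ± 0.16 (SE; limma adjusted p = 0.0714), positive under all 20 alternatives (0.24 to 0.58) and past the threshold under 0 of them. Without ZT8 replicate 2 it was 0.30. Tubb2a (ENSMUSG00000058672), its close relative, was at 1440, 1325, 1317 and 1316 TPM at ZT20 and at 1265, 983 and 1284 TPM at ZT8. ZT8 replicate 2 was the lowest sample of both genes. The log2 difference of Tubb2a was 0.21 (standard error 0.12, limma adjusted p = 0.259), and it was −0.027 under median-ratio scaling and 0.082 without ZT8 replicate 2. Tubb2a and Tubb2b together were at 1501 to 1673 TPM at ZT20 and 1099 to 1445 TPM at ZT8, with no overlap. The ratio of Tubb2a to Tubb2b was 6.19 to 7.09 at ZT20 and 7.32 to 8.45 at ZT8.

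Tubb3 (ENSMUSG00000062380), the neuronal isotype, was the most abundant β-tubulin in every sample. It was at 4237, 3116, 3943 and 4093 TPM at ZT20 and at 3456, 2380 and 3544 TPM at ZT8. ZT20 replicate 2 fell within the ZT8 range, and ZT8 replicate 2 was lowest of all. Its log2 value was 0.31 ± 0.17 (SE; limma adjusted p = 0.236), and without ZT8 replicate 2 it was 0.13 (limma adjusted p = 0.554). Over the 20 alternatives it ran from 0.079 to 0.41 and passed the threshold under 0 of them. Tubb6 (ENSMUSG00000001473), a minor β-tubulin, was at 187 to 261 TPM at ZT20 and 230 to 272 TPM at ZT8. Its log2 difference of −0.16 did not pass (limma adjusted p = 0.470), and the groups overlapped. It was −0.077 without ZT20 replicate 3, −0.11 without ZT20 replicate 1 and −0.10 without ZT8 replicate 1. Over the 20 alternatives it ran from −0.39 to 0.14 and passed under 0 of them. Relative to the median of all genes it was −0.40.

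Tuba1a (ENSMUSG00000072235) had the highest value of any member, 8254 TPM, in ZT8 replicate 2. Its mean was 5667 ± 198 TPM (SD, n = 4) in the ZT20 group and 6886 ± 1211 TPM (SD, n = 3) in the ZT8 group. The groups did not overlap, but the highest ZT20 sample (5895 TPM) and the lowest ZT8 sample (5948 TPM) were nearly equal. In log2 the Tuba1a difference was −0.27 ± 0.13 (SE; limma adjusted p = 0.183), and −0.50 when set against the median of all genes. All 20 alternatives were negative and 0 passed. Scaling by median ratios gave the largest drop, −0.50, still short of the threshold (limma adjusted p = 0.0844). Leaving out ZT8 replicate 3 gave −0.37 (limma adjusted p = 0.0983). The smallest drop, −0.13, came without ZT8 replicate 2 (limma adjusted p = 0.358). Tuba1b (ENSMUSG00000023004), an α-tubulin of most cells, was at 1956, 1762, 1890 and 1886 TPM at ZT20 and at 1642, 1431 and 1949 TPM at ZT8. Its log2 difference of 0.17 did not pass (limma adjusted p = 0.347) and had the opposite sign under median-ratio scaling, at −0.060. It was 0.066 without ZT8 replicate 2 and 0.29 without ZT8 replicate 3. The sum of Tuba1a, Tuba1b and Tuba1c was 7238 to 7879 TPM at ZT20 and 7928 to 9711 TPM at ZT8, without overlap.

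The remaining α-tubulins, Tuba4a (ENSMUSG00000026202) and Tuba1c (ENSMUSG00000043091), had overlapping groups. Tuba4a was at 145 to 214 TPM at ZT20 and 122 to 215 TPM at ZT8, the widest relative range of the members within ZT8 (1.76-fold). Tuba1c was at 26.7 to 30.9 TPM and 24.9 to 31.4 TPM. The log2 differences were 0.097 for Tuba4a (limma adjusted p = 0.767) and 0.078 for Tuba1c (limma adjusted p = 0.724), and both were negative under median-ratio scaling, at −0.13 and −0.15. With 1 library left out Tuba1c ranged from 0.017 without ZT8 replicate 1 to 0.18 without ZT8 replicate 3, and Tuba4a from −0.12 without ZT8 replicate 2 to 0.29 without ZT8 replicate 3.

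**Figure D3:**
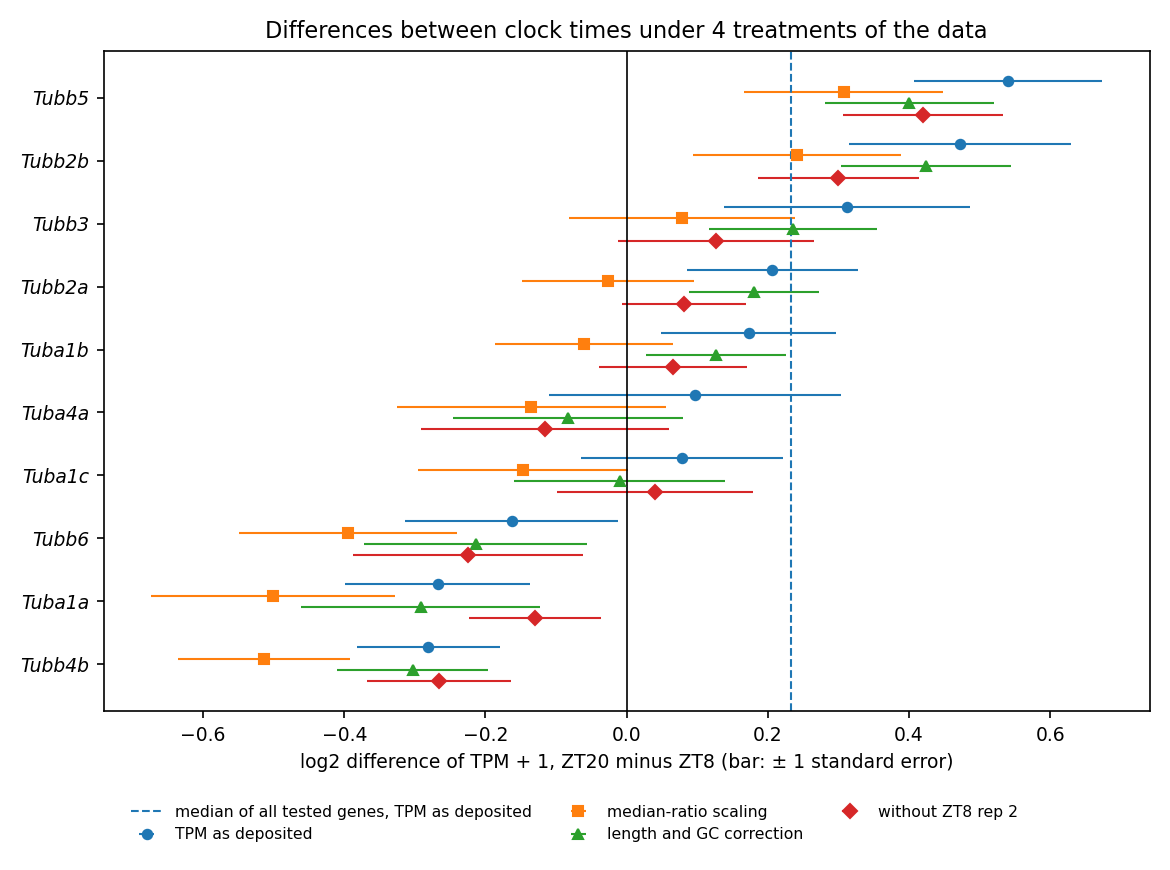
Log2 difference of TPM + 1 (ZT20 minus ZT8) of each member with ± 1 standard error from limma, for the deposited TPM, median-ratio scaling, the length and GC correction, and without ZT8 replicate 2. The dashed line is the median of all tested genes for the deposited TPM (0.23). That median was 0.033 under median-ratio scaling, −0.0030 with the length and GC correction and 0.15 without ZT8 replicate 2. Tubb5, Tubb2b and Tubb3 lie to the right of 0 in all 4 and Tubb4b, Tuba1a and Tubb6 to the left, while Tuba1b, Tubb2a, Tuba4a and Tuba1c change side.

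In deposited TPM the summed α-tubulin members were higher in every ZT8 sample than in any ZT20 sample. The β-tubulin sums overlapped, and the total differed little. The 4 α-tubulin members summed to 8093, 7382, 7859 and 7653 TPM at ZT20 and to 8291, 9833 and 8144 TPM at ZT8. The 6 β-tubulin members summed to 7659, 6321, 7023 and 7140 TPM at ZT20 and to 6499, 4983 and 6638 TPM at ZT8. The mean total was 14783 TPM at ZT20 and 14796 TPM at ZT8. Median-ratio scaling divides the ZT20 libraries by 1.03 to 1.14 and the ZT8 libraries by 0.870 to 0.981. It would lower every ZT20 total and raise every ZT8 total, so the likeness of the totals depends on the scaling. The ratio of the α sum to the β sum was 1.06 to 1.17 at ZT20. At ZT8 it was 1.28 and 1.23 in replicates 1 and 3 and 1.97 in replicate 2. The groups did not overlap, and these sums over chosen genes were not tested. They leave out Tubb4a, another β-tubulin abundant in these samples.

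Isotype shares showed which genes made up each sum. Tuba1a made up 72.8% to 73.8% of the α sum in the ZT20 samples, a spread of under 1 percentage point. At ZT8 it was 77.9%, 83.9% and 73.0%, so ZT8 replicate 3 fell inside the ZT20 range. Tuba1b made up 23.9% to 24.6% at ZT20 and 19.8%, 14.6% and 23.9% at ZT8. The part that the division of shared reads has in these shares was not tested. Tubb3 made up 49.3% to 57.3% of the β sum at ZT20 and 47.8% to 53.4% at ZT8. Of 10 shares, 2 did not overlap between the groups, both of the β sum. Such shares have no counterpart over all genes, and of all tested genes 33.2% did not overlap in TPM. Shares of one sum depend on each other, so the 2 are not separate results. Tubb5 made up 8.79% to 11.9% of the β sum in the ZT20 samples and 7.99% to 8.24% in the ZT8 samples. Tubb4b made up 9.93% ± 0.531 (SD, n = 4) of it at ZT20, below its 14.3% ± 2.64 (SD, n = 3) in the other group.

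**Figure D4:**
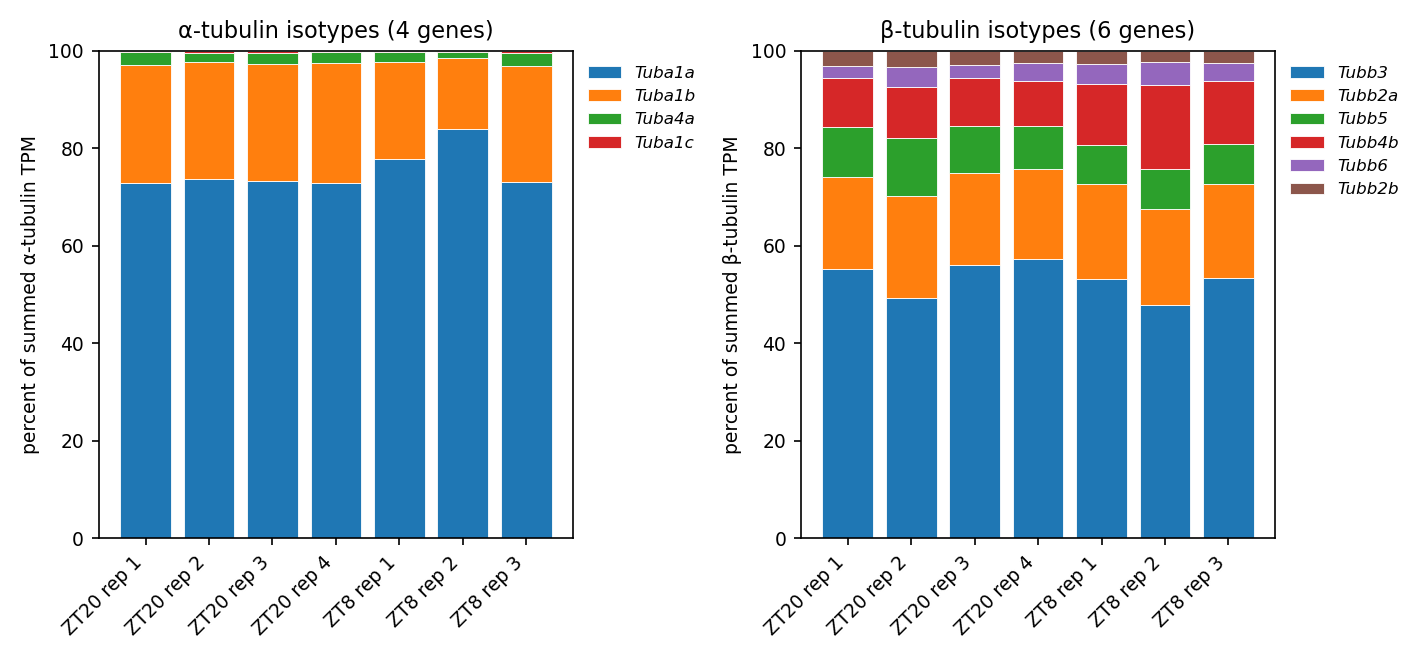
Share of each α-tubulin (left) and β-tubulin (right) gene in the summed TPM of its family, in percent, with 1 bar per sample. The Tuba1a share reaches 83.9% in ZT8 replicate 2, and the Tubb4b share is at 12.5% to 17.3% in the ZT8 samples and at 9.19% to 10.5% in the ZT20 samples.

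The summed markers of satellite glia, macrophages and plasma cells were lower in every ZT20 sample than in any ZT8 sample, and the sums of the other lists overlapped between the groups. Each of these lower sums was carried by a few abundant genes of its list. Of 10 neuronal markers 3 were called, all higher at ZT20 (12.8% of all tested genes were called higher and 3.61% lower), and their summed level was 14417 to 16992 TPM at ZT20 and 11589 to 16226 TPM at ZT8. Of 6 satellite glia markers 3 were called, all lower at ZT20, and the sum was 7483 to 9148 TPM against 12760 to 15466 TPM. Most of that sum was Apoe. Of the genes not called, Cdh19 and Kcnj10 had log2 differences of 0.38 and 0.21 and Glul had one of −0.42. Schwann cell markers summed to 1127 to 1270 TPM and 904 to 1305 TPM, with 0 of 6 called. Macrophage markers, with 1 of 6 called, summed to 92.3 to 137 TPM and 143 to 316 TPM. Of these only C1qa and C1qb did not overlap, and Csf1r, Cx3cr1, Adgre1 and Cd68 overlapped. Plasma cell markers, with 1 of 5 called, summed to 267 to 486 TPM and 496 to 935 TPM, and 2 of the 5 were at 0 in a sample, Mzb1 in ZT20 replicate 4 and Derl3 in ZT8 replicate 2. Jchain and Mzb1 did not overlap between the groups, and Xbp1, Sdc1 and Derl3 did. Fibroblast markers summed to 77.7 to 108 TPM and 84.0 to 197 TPM, proliferation markers to 19.6 to 57.2 TPM and 22.3 to 27.0 TPM, and endothelial markers to at most 4.05 TPM, each with 0 called. None of the marker genes was at 0 in all 7 samples. With the neuronal minus glial and macrophage marker score as a covariate the Tubb5 difference was 0.37 (limma adjusted p = 0.484, when 0 of 14800 genes passed). With that covariate the Tubb4b difference was −0.43 (limma adjusted p = 0.307) and that of Tubb2b 0.34 (limma adjusted p = 0.591), and 0 of the 10 members passed.

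Other tubulin genes gave 0 calls by limma among 6 tested of 10 listed, with 0 at an unadjusted p under 0.05. Among all tested genes 16.4% were called and 34.6% had an unadjusted p under 0.05. The median log2 difference of these genes was 0.15, against 0.23 for all tested genes. Tubb4a, a β-tubulin of neurons and oligodendrocytes named here for its level, was at 713, 488, 711 and 730 TPM at ZT20 and at 580, 308 and 589 TPM at ZT8. It was lowest in ZT8 replicate 2, and its log2 difference was 0.46 (standard error 0.25, limma adjusted p = 0.220). The γ-tubulin Tubg1, part of the ring that starts microtubules and likewise chosen by level, was at 72.6 to 90.3 TPM and 64.4 to 85.2 TPM. Tuba3a was listed at 0 in all 7 samples, and Tuba3b and Tubal3 in all but 1.

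Genes that fold tubulin and control its mRNA gave 5 calls among 23 tested, 1 higher and 4 lower at ZT20 (21.7%, against 16.4% of all tested genes). By direction, 1 of 23 stands beside 12.8% called higher among all tested genes and 4 of 23 beside 3.61% called lower. Their median log2 difference was −0.14, against 0.23 for all tested genes. The difference was positive for 6 of the 23 and for 66.4% of all tested genes. Of 6 prefoldin genes, which hand newly made tubulin to the chaperonin, 2 fell. Pfdn5 was at 242, 260, 217 and 208 TPM at ZT20 and at 428, 650 and 429 TPM at ZT8, in log2 −1.09 ± 0.17 (SE; limma adjusted p = 0.00735). Vbp1 was at 121 to 142 TPM and 185 to 260 TPM, a log2 difference of −0.67 (limma adjusted p = 0.0175). Neither gene overlapped between the groups.

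Of 8 genes of the chaperonin CCT, which folds α- and β-tubulin, 2 fell at ZT20. Cct5 was at 367 to 428 TPM and 487 to 591 TPM (log2 difference −0.45, limma adjusted p = 0.0290). Cct4 was at 174 to 210 TPM and 255 to 290.1 TPM (log2 difference −0.43, limma adjusted p = 0.0360). Of the 7 genes listed as tubulin cofactors, Tbcd rose, at 88.5 to 104 TPM and 49.3 to 80.7 TPM (log2 difference 0.65, limma adjusted p = 0.0361). With the length and GC correction 5 genes of the list passed, all lower at ZT20, where 5.09% of all tested genes passed as lower and 3.64% as higher. Pfdn5 was then at −1.08 (limma adjusted p = 0.0136), Vbp1 at −0.59 (limma adjusted p = 0.0211) and Cct4 at −0.52 (limma adjusted p = 0.0239). Under that correction Cct5, at −0.43 (limma adjusted p = 0.0709), and Tbcd, at 0.19 (limma adjusted p = 0.364), did not pass. The longest transcript of Tbcd has 4832 nt and that of Pfdn5 1062 nt. Ttc5, which recognises nascent tubulin, and Scaper, which acts with it, did not pass (limma adjusted p = 0.177 and 0.0920). With any 1 ZT20 library left out 1 to 3 genes of this list passed, Pfdn5 in all 4 cases, and without ZT8 replicate 3 there were 3.

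**Figure D5:**
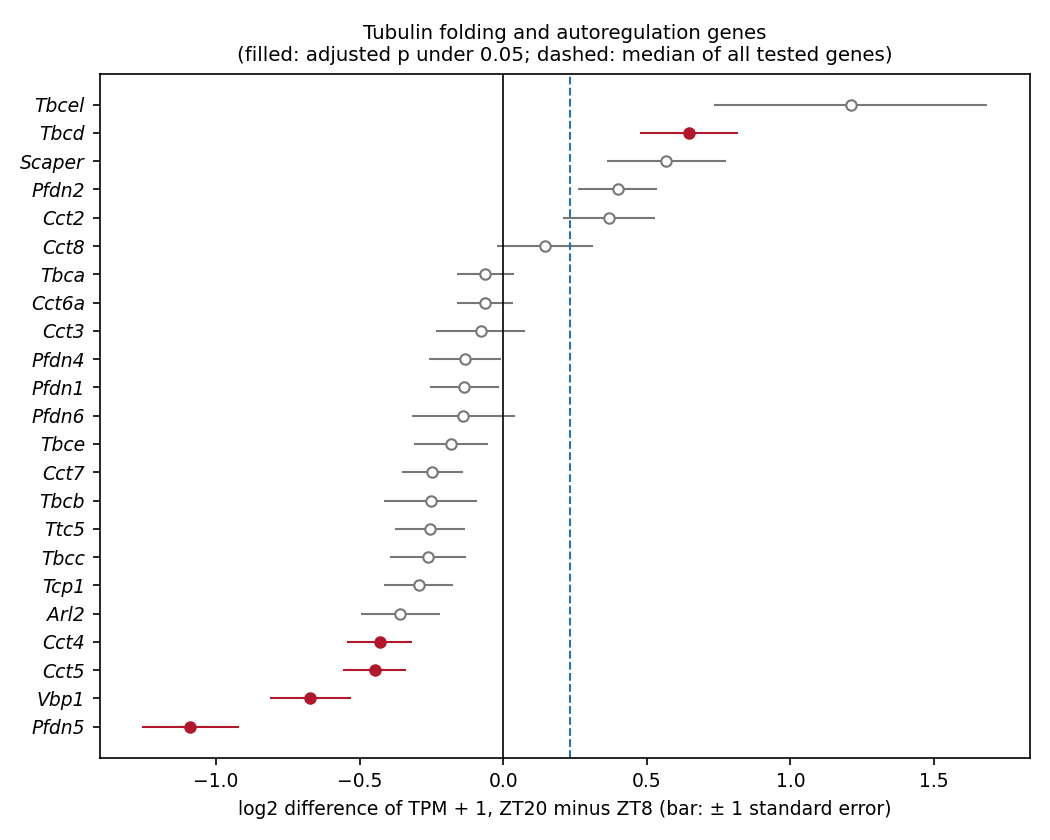
Log2 difference of TPM + 1 (ZT20 minus ZT8) with ± 1 standard error from limma for 23 tubulin folding and autoregulation genes. Filled points passed an adjusted p under 0.05 and the dashed line is the median of all tested genes. Of the filled points Pfdn5, Vbp1, Cct5 and Cct4 lie left of 0 and Tbcd right.

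Promoters were searched for the clock motifs E-box (CACGTG), D-box (TTATGNAA) and the RORE core (AGGTCA) on both strands, in windows of 300 bases from RefSeq (build GRCm38.p6). A window was matched by symbol for 8 members, not for Tubb2b and Tubb6. The E-box letters occurred in 1 of the 8, that of Tubb5, and in 7.15% of all 32851 promoter windows. The D-box and RORE core letters occurred in 0 of the 8, and in 3.38% and 16.3% of all windows. The Tubb5 window is shown because it belongs to the only member called. These are its 250 bases before the start (chr17:35838302-35838551, minus strand), with the E-box in capitals, whose first base lies 75 bases before the start:
Tubb5 promoter: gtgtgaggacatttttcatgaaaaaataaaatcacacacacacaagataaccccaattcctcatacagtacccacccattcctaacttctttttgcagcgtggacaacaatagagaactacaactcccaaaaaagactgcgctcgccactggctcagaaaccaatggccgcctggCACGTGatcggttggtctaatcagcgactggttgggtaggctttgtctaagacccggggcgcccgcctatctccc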

How the data were processed

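RNA from neuron-enriched lumbar ganglia was sequenced in 7 samples, grouped by title (ZT20 n = 4, ZT8 n = 3). The authors deposited TPM values per gene, and each column was matched to its sample by name. The submitters' processing notes name FastQC 0.11.9, Trim Galore 0.6.6, Salmon 1.6.0, DESeq2 1.34.0 and GRCm39, with no role or order. How transcripts were summed to genes, the annotation release and the read length are not given in the sources used here. TPM has no depth, so no counting interval was given.

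Values were analysed as log2(TPM + 1), which understates changes of low genes. The 14800 genes averaging 1 TPM or more were fitted with limma 3.58.1 (lmFit, eBayes with an intensity trend, R 4.3.3), two-sided, with Benjamini-Hochberg adjustment and no covariates, and the fit was tested on simulated data. Sums, ratios and shares were chosen with the values known and got no test. Shared 31-base words and coding identity (global alignment, Biopython 1.88) came from GENCODE M21, using all transcripts of each gene for words and its longest complete coding transcript for identity, in place of a planned protein comparison. Length and GC content were matched by identifier for 51484 genes.

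The members and lists were chosen with earlier results of these data known. The rule for names took all members and every listed gene past the threshold. Tried in place of these settings were median-ratio and quantile scaling, a minimum average of 5 TPM or none, a pseudocount of 0.1, leaving out genes of the mitochondrial genome, the replicate block, a length and GC correction (loess, span 0.3), the last 2 together, a marker score, no trend, array weights, and leaving out libraries. A gap in the ZT20 samples above 0.829 of their range was listed. Some coding ends are not reported here.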

Additional observations from a re-analysis of the deposited data

Results flagged for a closer look

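Among 20 sets of ZT20 values (TPM and share of each member), 2 had 1 of the 4 samples far from the rest, and chance gives about 1 in 20. Both concern Tubb2a. Its level in ZT20 replicate 1, 1440 TPM, stood off from 1316 to 1325 TPM in the others, a gap of 0.924 of the range. ZT20 replicate 2 had a Tubb2a share of the β sum of 21.0%, against 18.4% to 18.8%, a gap of 0.853 of the range.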

How the results depend on the processing

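The cause of the changes below was not tested. Of the members, 0 passed by limma without a filter, with the length and GC correction, with the marker score, without an intensity trend, and without the libraries lacking Y-linked transcripts, and 0 to 1 with 1 replicate left out. Unadjusted p was under 0.05 for 3 members as reported and for 3, 3, 1, 2 and 2 in those settings. For all genes the count was 5122 (34.6%) as reported and 6432, 3997, 2271, 5003 and 2425 in those settings. The fit without a filter tested 31897 genes, and the others of those settings 14800. Over all genes the counts at an adjusted p were 1178, 1293, 0, 2197 and 0 in that order, 3899 with array weights and 624 to 3055 with 1 replicate left out. Of the calls 78.1% were higher at ZT20 as deposited, 49.3% under median-ratio scaling, 55.7% under quantile normalization and 41.7% after the length and GC correction. For the folding genes (5 as reported) the counts were 2 without a filter, 8 under median-ratio scaling (all lower; of all genes 7.84% were lower and 7.62% higher), 5 with the length and GC correction (all lower; 5.09% and 3.64%), 0 with the marker score (4 unadjusted), 2 without a trend, 9 with array weights, 0 without the libraries lacking Y-linked transcripts (5 unadjusted) and 1 to 6 with 1 replicate left out.

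Deviations of same-numbered samples from their group means correlated at −0.014, 0.15 and 0.083 across genes. Those of differently numbered samples correlated at −0.17 to 0.15. With so few samples these values cannot show whether replicate numbers pair the samples. With the replicate block 0 members (2 unadjusted), 2 folding genes and 1174 genes passed, and 0 (2 unadjusted), 1 and 611 with the block and the length and GC correction.

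Signs opposite to those reported were −0.060 for Tuba1b, −0.15 for Tuba1c, −0.13 for Tuba4a and −0.027 for Tubb2a under median-ratio scaling. With the marker score they were −0.0087, −0.14 and −0.32 for Tuba1b, Tuba1c and Tuba4a and 0.14 for Tubb6. Tuba1c was −0.14 under quantile normalization and −0.010 with the length and GC correction. Tuba4a was −0.083 with that correction, −0.041 with the block added, −0.017 with array weights and −0.12 to 0.29 with 1 replicate left out, lowest without ZT8 replicate 2. None of these passed the threshold in either direction. Depth is unknown, so the precision of low members such as Tuba1c cannot be given.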
